A study of Mus musculus with 6 samples.

Results

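The glucocorticoid receptor gene, the mineralocorticoid receptor gene, the pair of HSD11B enzyme genes and 6 genes that glucocorticoids are known to induce were followed in 6 RNA-seq libraries of mouse mammary carcinoma cells. The 10 genes, Nr3c1, Nr3c2, Hsd11b1, Hsd11b2, Sgk1, Tsc22d3, Fkbp5, Per1, Dusp1 and Errfi1, were found by symbol among the 53465 genes of the table of expected counts, and all 10 were present. They were chosen by their place in the pathway with measured values of the same comparison in view. Their levels, changes and calls between the fractions are therefore a description and no test of the family.

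All 6 libraries were of polyadenylated RNA from the 4T1 line resistant to axitinib, an inhibitor of VEGF receptor kinases. Per the series' design text, the resistant cells came from lesions left after surgery in mice dosed with axitinib at 100 mg/kg/day, and both fractions were later cultured with 0.5 µM axitinib. Cells stained with C12FDG, which fluoresces once β-galactosidase has cleaved it, were sorted into a high fraction (SM positive, SA-β-galHi, 3 libraries) and a low fraction (SM negative, SA-β-galLo, 3 libraries). Each library had 18733801 to 26533528 expected counts. The labels name 1 line, no unsorted or axitinib-free control was analysed here, and the steroid content of the serum in the medium is not given in the sources used here. The sort used enzyme activity, and SM positive and SM negative are names of the gates.

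Glucocorticoids enter the cell and bind the receptor encoded by Nr3c1, which chaperones hold ready in the cytoplasm. The bound receptor moves to the nucleus, where it binds DNA elements made of a pair of inverted short sequences and raises or lowers transcription nearby. The enzymes encoded by Hsd11b1 and Hsd11b2 work in opposite directions: the first mainly regenerates active corticosterone or cortisol from the inert 11-keto form, and the second inactivates it. In kidney and other epithelia the second enzyme keeps glucocorticoids off the mineralocorticoid receptor, encoded by Nr3c2, which can bind the same hormones. In breast epithelium the pathway is known for its roles in lactation and in cell survival.

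Promoter sequence was examined because the target genes share a factor that reads a known element. RefSeq windows (GRCm38.p6) of the 250 bases before a transcription start were found for 8 of the 10 genes, in 17 windows, 6 of them for Sgk1. The full element was searched as AGAACA, one arm of the element, followed, after any 3 bases, by its reverse complement TGTTCT, a form that reads alike on both strands. It occurred in 3 of 32851 windows (0.00913%), and 1 of these was an Sgk1 window. The match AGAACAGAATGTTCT lies at chr10:21993701-21993715, 189 bases before a start at 21993890, in an intron of longer Sgk1 transcripts. One arm alone, on either strand, was in 16.1% of all windows and in 4 of the 17 windows, 3 of Sgk1 and 1 of Tsc22d3. The cyclic AMP response element TGACGTCA was in 1.55% of all windows, and among these genes in a window of Dusp1 and a window of Errfi1. The E-box CACGTG, which clock factors bind, was in 6.02% of all windows, and among these genes in 1 window each of Dusp1, Fkbp5, Per1 and Sgk1. A match says only that the letters are there. Windows that hold a match and lie in an intron are printed for 3 of the target genes, with the matched full element, cyclic AMP element or E-box in capitals. In the Sgk1 window the end of the E-box overlaps the start of a further single arm.
Sgk1 (chr10:21993640-21993889, plus strand, RefSeq GRCm38.p6, E-box then full element): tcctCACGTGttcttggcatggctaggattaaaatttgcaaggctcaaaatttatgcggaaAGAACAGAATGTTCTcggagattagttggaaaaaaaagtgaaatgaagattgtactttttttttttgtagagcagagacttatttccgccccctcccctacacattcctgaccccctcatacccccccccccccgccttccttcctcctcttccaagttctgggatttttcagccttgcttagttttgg
Errfi1 (chr4:150854820-150855069, plus strand, RefSeq GRCm38.p6, cyclic AMP element): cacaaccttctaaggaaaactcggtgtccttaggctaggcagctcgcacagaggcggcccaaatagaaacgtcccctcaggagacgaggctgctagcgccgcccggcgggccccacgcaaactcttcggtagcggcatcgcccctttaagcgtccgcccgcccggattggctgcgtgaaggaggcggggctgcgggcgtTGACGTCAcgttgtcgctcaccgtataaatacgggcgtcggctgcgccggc
Fkbp5 (chr17:28486150-28486399, minus strand, RefSeq GRCm38.p6, E-box): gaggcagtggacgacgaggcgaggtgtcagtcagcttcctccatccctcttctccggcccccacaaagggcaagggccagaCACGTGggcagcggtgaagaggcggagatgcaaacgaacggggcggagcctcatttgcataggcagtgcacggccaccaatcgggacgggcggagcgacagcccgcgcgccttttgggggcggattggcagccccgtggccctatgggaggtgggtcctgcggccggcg

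Between the fractions, Hsd11b2 and Sgk1 stood higher and Hsd11b1 stood lower in SM positive cells, in all 3 same-numbered pairs and with no overlap between the fractions' libraries. Nr3c1 was slightly higher in all 3 pairs, by 1.11-fold. The textbook targets Tsc22d3, Fkbp5 and Per1 had changes of 0.08 or less on the log2 scale in either direction. With same-numbered libraries paired (a block for the replicate number in edgeR's quasi-likelihood test with Benjamini-Hochberg adjustment, 3 libraries a fraction), 3 of the 10 genes were called higher and 1 lower at an adjusted p threshold of 0.05, and 6 did not pass. Of all 14038 genes tested, 14.1% were called in that fit, 8.52% higher and 5.60% lower. Without the block, 2 of the 10 were called, Hsd11b2 and Sgk1, beside 1.35% of all genes. The fractions' libraries did not overlap for 3 of the 10 genes and for 19.9% of all genes. Because the genes were chosen with this contrast known, nothing is read from these counts. The median log2 change was 0.14 over the 10 genes and -0.001 over all genes tested. All 10 genes passed the filter on low counts, and each was above its minimum of 0.469 CPM (counts scaled to a common library total of 1000000) in all 3 libraries of both fractions. In bulk libraries, fewer cells that express a gene and less of its RNA per cell cannot be told apart.

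**Figure D1:**
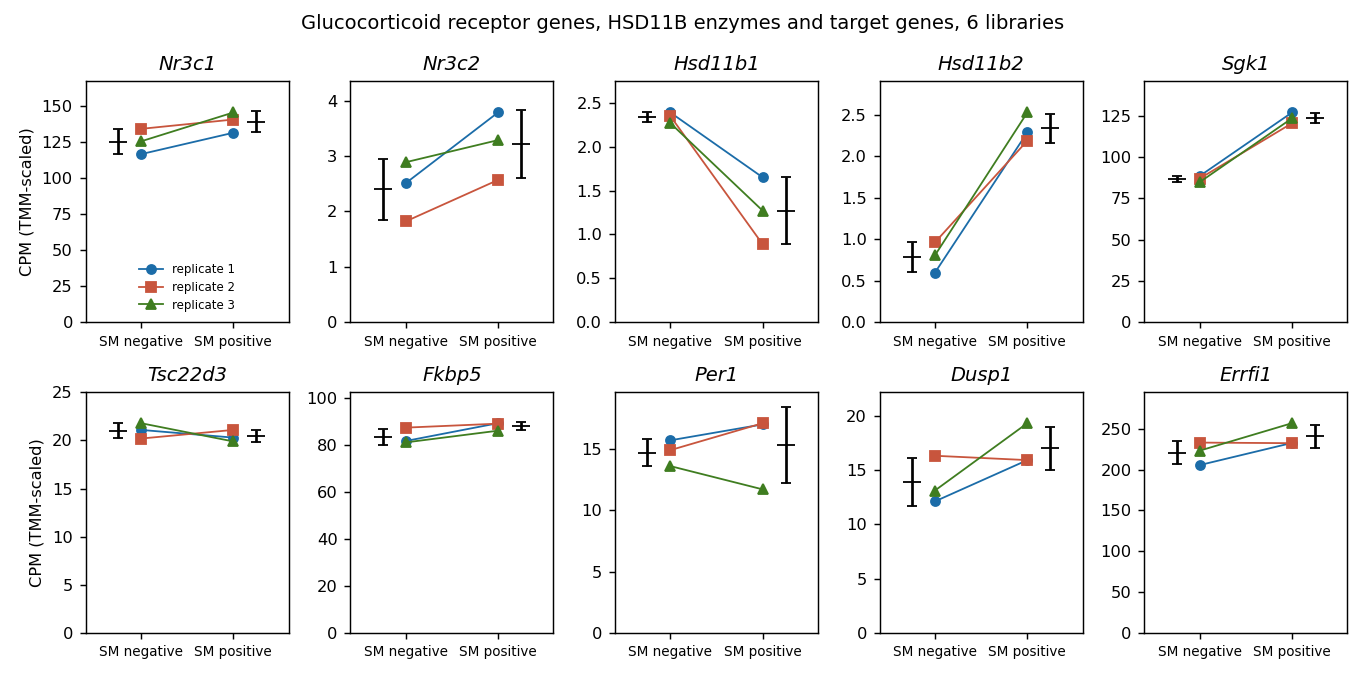
CPM (TMM-scaled, axis from 0) of each of the 10 genes in the SM negative and SM positive library of each replicate number, joined by a line, with the mean ± SD of the 3 libraries of a fraction in black at the side. The lines of Hsd11b2 and Sgk1 rise and those of Hsd11b1 fall in all 3 pairs, while those of Tsc22d3, Per1, Dusp1 and Errfi1 do not share 1 direction.

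The 2 receptor genes differed in level far more than they differed between fractions. Nr3c1 (ENSMUSG00000024431.14, chromosome 18, 39410545 to 39519421, minus strand, GENCODE M21 on GRCm38) stood at 116.8, 134.4 and 125.7 CPM in SM negative replicates 1, 2 and 3, and at 131.7, 140.9 and 145.8 CPM in SM positive replicates 1, 2 and 3. The SM positive library was the higher one in each pair, but the ranges of the fractions overlap, because SM negative replicate 2 lies above SM positive replicate 1. The means were 125.6 ± 8.77 and 139.5 ± 7.18 CPM (SD, n = 3), and the fitted log2 change was 0.15 ± 0.0428 (SE). The Nr3c1 call ended without the block (log2 change 0.15), without pair 1 (0.14), without pair 3 (0.12) and with DESeq2 (0.15).

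Nr3c2 (ENSMUSG00000031618.13, chromosome 8, 76899442 to 77245012, plus strand) was sparse, with 34 to 101 counts a library. Its levels were 2.51, 1.82 and 2.89 CPM in SM negative and 3.79, 2.57 and 3.29 CPM in SM positive replicates 1, 2 and 3. The SM positive library was higher in each pair and the ranges overlap. The fitted log2 change of 0.43 ± 0.176 was not called.

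The HSD11B enzyme genes were both near the lower end of what these libraries measure, and they moved in opposite directions. Hsd11b2 (ENSMUSG00000031891.6, chromosome 8, 105518755 to 105523988, plus strand), the inactivating enzyme, had 15, 18 and 17 counts in SM negative and 61, 47 and 50 counts in SM positive replicates 1, 2 and 3. These are 0.597, 0.962 and 0.806 CPM against 2.29, 2.19 and 2.53 CPM. The lowest SM positive library was above the highest SM negative library, and the means of 0.788 ± 0.183 and 2.34 ± 0.174 CPM differed 3.01-fold in the fit. The log2 change was 1.59 ± 0.249, with 1.94, 1.19 and 1.65 in pairs 1, 2 and 3.

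Hsd11b1 (ENSMUSG00000016194.14, chromosome 1, 193221634 to 193264075, minus strand), the regenerating enzyme, had 60, 44 and 48 counts in SM negative and 44, 19 and 25 counts in SM positive replicates 1, 2 and 3. Its levels were 2.39, 2.35 and 2.27 CPM in SM negative and 1.65, 0.887 and 1.27 CPM in SM positive libraries. The SM negative libraries lie close together, and all 3 SM positive libraries lie below them and spread more widely. At 44 to 60 counts, counting error exceeds the spread of the SM negative libraries, so nothing is read from the difference in spread. The means were 2.34 ± 0.0576 and 1.27 ± 0.382 CPM, a 1.83-fold lower level with a log2 change of -0.87 ± 0.228. The Hsd11b1 call ended without the block (log2 change -0.86), without pair 2 (-0.67), without pair 3 (-0.89) and with DESeq2 (-0.91). Hsd11b1 shares its locus with Lamb3 on the opposite strand, without overlap of exons.

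Set side by side per length, the enzyme genes changed order between the fractions. The level of Hsd11b2 over that of Hsd11b1, both in CPM per kb of exon, was 0.578, 0.945 and 0.818 in SM negative replicates 1, 2 and 3, a mean of 0.78 ± 0.186. In SM positive replicates 1, 2 and 3 the same ratio was 3.20, 5.72 and 4.62, a mean of 4.51 ± 1.26. Hsd11b1 was thus the higher of the pair in all 3 SM negative libraries and Hsd11b2 in all 3 SM positive libraries. In SM negative replicates 2 and 3, with 18 and 17 counts of Hsd11b2, the gap per kb was within counting error of equal levels. The same order holds in CPM not divided by length. The size of the ratio depends on the exon lengths used, 1840 bases for Hsd11b2 and 4251 bases for Hsd11b1. The ratio combines 2 genes chosen on this contrast and has no test. With 15 to 61 counts behind each value, counting error is a sizeable part of the spread. H6pd, which encodes the enzyme that supplies the cofactor for Hsd11b1, had a log2 change of 0.04 (adjusted p = 0.63).

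**Figure D2:**
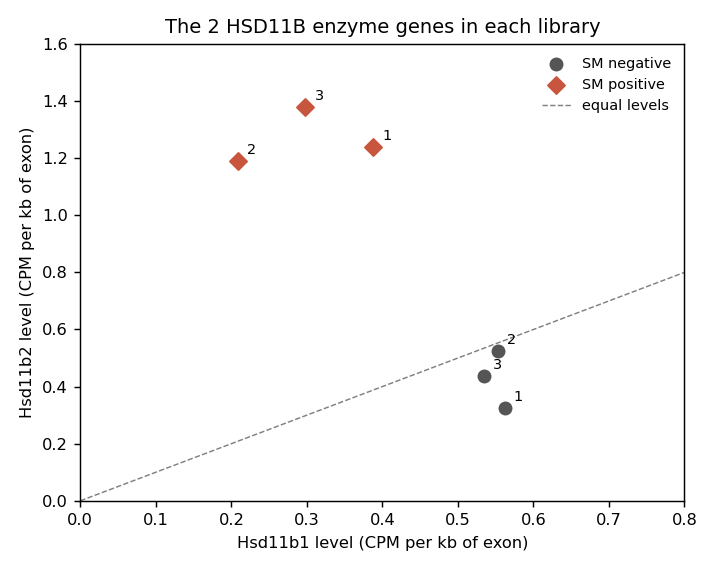
Level of Hsd11b2 against that of Hsd11b1 in each library, both in CPM per kb of exon, with replicate numbers beside the points and a dashed line at equal levels. SM negative points lie below the line, with ratios of 0.578 to 0.945, and SM positive points above it, with ratios of 3.20 to 5.72.

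Among the target genes, Sgk1 was the one that separated the fractions. Sgk1 (ENSMUSG00000019970.15, chromosome 10, 21882184 to 21999903, plus strand) encodes a kinase that both steroid receptors induce and that regulates ion transport and survival. It stood at 88.4, 86.9 and 84.7 CPM in SM negative and 126.9, 120.4 and 123.4 CPM in SM positive replicates 1, 2 and 3. The fractions do not overlap, and the gap between them exceeds the range within either one. The means were 86.7 ± 1.86 and 123.6 ± 3.21 CPM, and the log2 change was 0.51 ± 0.0421, with 0.52, 0.47 and 0.54 in pairs 1, 2 and 3. The full receptor element printed above was found in 1 window of Sgk1, which had 6 of the 17 windows searched. Its part in the change of Sgk1 was not tested.

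Tsc22d3 (ENSMUSG00000031431.13, chromosome X, 140539528 to 140600659, minus strand) encodes GILZ, a leucine zipper protein that glucocorticoids induce directly in many tissues. It stood at 21.1, 20.2 and 21.8 CPM in SM negative and 20.3, 21.1 and 19.9 CPM in SM positive libraries. The ranges overlap almost fully, and the log2 change was -0.04 ± 0.0672. Fkbp5 (ENSMUSG00000024222.16, chromosome 17, 28399094 to 28517527, minus strand) encodes a cochaperone that lowers the receptor's affinity for hormone and is induced by it. It stood at 81.7, 87.4 and 81.1 CPM in SM negative and 89.3, 89.1 and 86.1 CPM in SM positive libraries, a log2 change of 0.08 ± 0.0423. SM negative replicate 2 lies within the SM positive range. Neither gene was called in the main fit or in any of the 12 alternatives.

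Per1 (ENSMUSG00000020893.17, chromosome 11, 69095217 to 69109960, plus strand) encodes a clock protein and is also an acute target of the receptor. It stood at 15.7, 14.9 and 13.6 CPM in SM negative and 17.0, 17.1 and 11.7 CPM in SM positive libraries. The pairs disagree, with log2 differences of 0.12, 0.20 and -0.22, and SM positive replicate 3 is the lowest of all 6 libraries. The fitted log2 change was 0.05 ± 0.0842.

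Dusp1 and Errfi1 encode brakes on growth factor signalling, a phosphatase that switches off MAP kinases and an inhibitor of the EGF receptor. Dusp1 (ENSMUSG00000024190.6, chromosome 17, 26505590 to 26562128, minus strand) stood at 12.1, 16.3 and 13.1 CPM in SM negative and 15.9, 15.9 and 19.3 CPM in SM positive libraries. SM negative replicate 2 lies above 2 of the SM positive libraries, and the log2 change was 0.30 ± 0.101. Exons of Ergic1 overlap Dusp1 on the opposite strand. Of the 3356 31-base stretches of Dusp1, 0 occur in another gene on either strand, so that overlap is shorter than 31 bases. No source used here says whether counting used the strand, so reads at that short overlap may be mixed. Errfi1 (ENSMUSG00000028967.10, chromosome 4, 150853919 to 150868892, plus strand) stood at 205.5, 233.1 and 223.2 CPM in SM negative and 232.7, 232.4 and 256.9 CPM in SM positive libraries, a log2 change of 0.13 ± 0.0439. Here too SM negative replicate 2 lies inside the SM positive range. Neither Dusp1 nor Errfi1 was called, and without pair 2 both were, with log2 changes of 0.47 and 0.19, as they were with no filter on low counts. Without pair 3 their log2 changes were 0.18 and 0.089, and without pair 1 they were 0.26 and 0.097, with neither gene called.

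**Figure D3:**
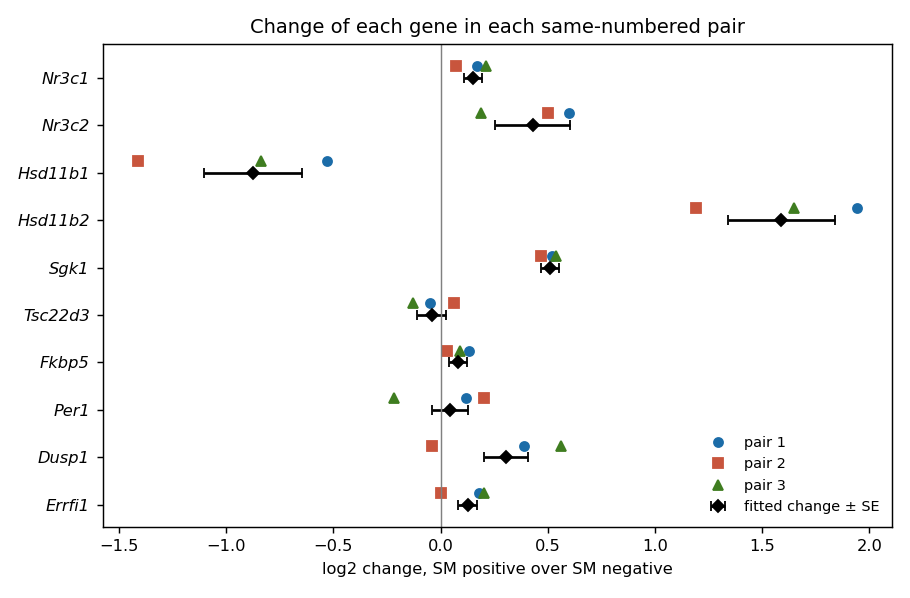
Log2 change of SM positive over SM negative for each gene, as the fitted change ± SE (diamonds) and as the difference in each of the 3 same-numbered pairs (coloured symbols). Hsd11b2 and Sgk1 lie to the right of 0 and Hsd11b1 to the left in all 3 pairs, and pair 2 gave Dusp1 and Errfi1 differences of -0.04 and 0.00.

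Per kb of exon, the levels of the 10 genes ran from 64.4 CPM for Errfi1 to 0.424 CPM for Hsd11b1, as means over 6 libraries. Errfi1 (57.4 to 71.7 over the 6 libraries) was followed by Sgk1 (17.3 to 25.9) and Nr3c1 (15.2 to 19), whose ranges overlap although Sgk1 was the higher of the pair in each of the 6 libraries. Fkbp5 (8.57 to 9.43) stood alone below them. Tsc22d3 (4.59 to 5.02) and Dusp1 (3.65 to 5.83) did not differ beyond their spread, and Per1 (2.08 to 3.04) came next. Hsd11b2 (0.324 to 1.38), Nr3c2 (0.281 to 0.585) and Hsd11b1 (0.209 to 0.562) formed the bottom of the order with overlapping ranges. Within SM negative libraries Hsd11b1 (0.535 to 0.562) was the highest of these 3 genes, above Hsd11b2 (0.324 to 0.523) and Nr3c2 (0.281 to 0.447). Its gap to Hsd11b2 in replicates 2 and 3 was within counting error. Within SM positive libraries Hsd11b2 (1.19 to 1.38) was the highest and Hsd11b1 (0.209 to 0.388) the lowest. Between 0% and 2.9% of the 31-base stretches in the exons of each gene also occur in another gene, with the highest share in Nr3c2.

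The rest of the pathway was read from 8 lists of 198 genes, of which 141 passed the filter. In the paired fit 27 of the 141 were higher and 7 lower, and without the block 4 were higher and none lower. Of all 14038 genes tested, 8.52% were higher and 5.60% lower in the paired fit, and 1.35% were called without the block. These shares are the background for the count of each list. The median log2 change of the 141 was 0.03. Lists, like the 10 genes, were written with earlier results of these data known.

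**Figure D4:**
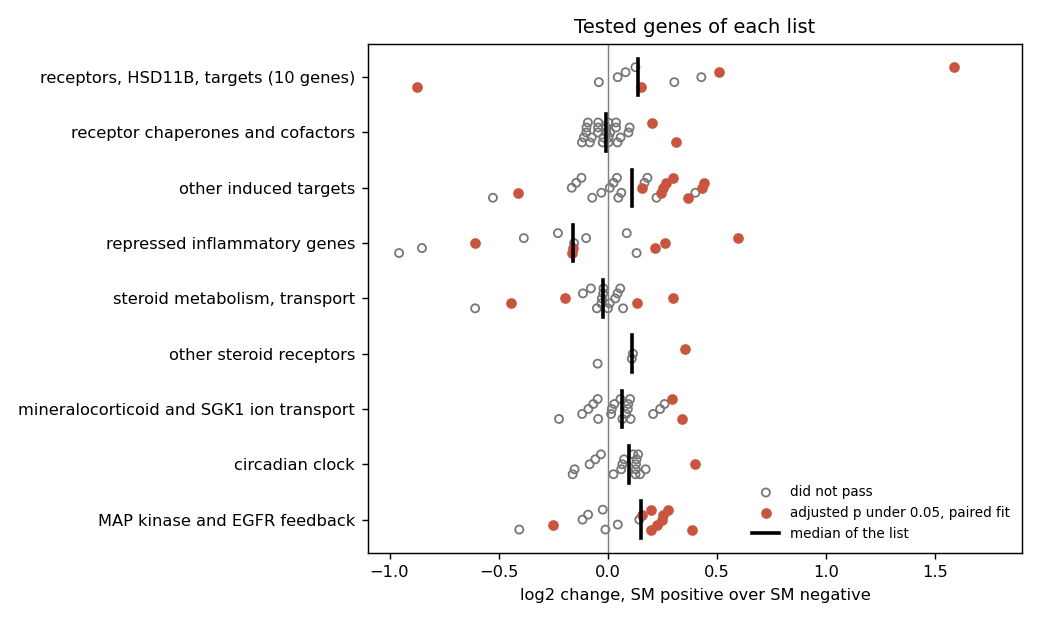
Log2 change of SM positive over SM negative for every tested gene of the 10 and of the 8 lists, filled where the adjusted p of the paired fit was under 0.05, with a bar at each list's median. List medians lie between -0.16 (genes that the receptor represses, most of them inflammatory) and 0.15 (MAP kinase and EGF receptor feedback).

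Of 26 chaperones and cofactors of the receptor, all 26 were tested, 2 were higher and none lower in the paired fit, beside 8.52% and 5.60% of all genes, and the median log2 change was -0.01. Without pair 2 there were 1 higher and 3 lower, and without pair 1 or pair 3 none was called. Hsp90aa1 and Hsp90ab1, the HSP90 chaperones that hold the receptor, had log2 changes of 0.04 and -0.09 (adjusted p = 0.549 and 0.188). Fkbp4, the cochaperone that Fkbp5 competes with, had a log2 change of -0.07 (adjusted p = 0.256). Nrip1, which encodes a corepressor of nuclear receptors, rose from 32.7 ± 2.55 to 40.6 ± 5.37 CPM (log2 change 0.31 ± 0.074, adjusted p = 0.0161). The coactivator gene Ncoa1 rose from 31.7 ± 1.57 to 36.6 ± 2.6 CPM (log2 change 0.20 ± 0.0538, adjusted p = 0.014). Both calls ended without the block (Nrip1 adjusted p = 0.206, Ncoa1 adjusted p = 0.273). The Nrip1 call also ended without pair 1 or pair 3 (adjusted p = 0.172 and 0.113), and the Ncoa1 call without pair 1, 2 or 3 (adjusted p = 0.074, 0.0627 and 0.101).

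Of 38 further genes that glucocorticoids induce in various tissues, 24 were tested, 8 were higher, 1 was lower and 15 did not pass, with a median log2 change of 0.11. Without the block 2 were higher. Tgm2, which encodes a transglutaminase that crosslinks proteins, stood at 130.8, 122.9 and 130.3 CPM in SM negative and 182.4, 165.6 and 173.9 CPM in SM positive libraries. The fractions did not overlap, and the rise was 0.44 ± 0.0405 on the log2 scale (adjusted p = 2.86e-07, and 0.0072 without the block). Exons of Rprd1b overlap Tgm2 on the opposite strand. Lpin1, which encodes a phosphatidate phosphatase of lipid synthesis, rose from 54.2 ± 5.66 to 73.2 ± 8.65 CPM (log2 change 0.43 ± 0.0453, adjusted p = 1.73e-06, and 0.0689 without the block). Fbxo32, a ubiquitin ligase gene of muscle wasting, fell from 8.14 ± 1.56 to 6.17 ± 0.627 CPM (log2 change -0.41 ± 0.122, adjusted p = 0.0301). The Fbxo32 call ended without the block (adjusted p = 0.268) and without pair 1 or pair 3 (adjusted p = 0.46 and 0.0583). Without pair 1 the log2 change of Fbxo32 was -0.21. The other call without the block was Foxo1, a transcription factor gene chosen after its values were seen, at 34.7 ± 1.57 and 44.9 ± 3.45 CPM (log2 change 0.37, adjusted p = 5.08e-05, and 0.0459 without the block). The metallothionein genes Mt1 and Mt2 had log2 changes of 0.01 and 0.05 (adjusted p = 0.93 and 0.603). Tat, Pck1, Klf15, Pdk4 and Zbtb16, also on this list, had 0 counts in all 6 libraries, which allows up to 0.113 to 0.16 CPM a library (3 counts).

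Of 25 genes that the receptor is known to repress, most of them inflammatory, 14 were tested. In the paired fit 3 were higher, 3 lower and 8 did not pass, with a median log2 change of -0.16. Ptgs2, the gene of the inducible cyclooxygenase, stood at 435.2, 460.2 and 476.2 CPM in SM negative and 643.3, 634.5 and 807.4 CPM in SM positive libraries. The fractions did not overlap, and it rose by 0.60 ± 0.0502 on the log2 scale (adjusted p = 1.81e-06, and 0.0148 without the block). Csf3, the gene of the granulocyte growth factor G-CSF, rose from 19.5 ± 2.47 to 23.4 ± 2.98 CPM (log2 change 0.26 ± 0.0669, adjusted p = 0.0119). The chemokine gene Ccl5 fell from 18.8 ± 2.24 to 12.3 ± 2.77 CPM (log2 change -0.61 ± 0.079, adjusted p = 2.13e-05, and 0.109 without the block). Vcam1, the gene of a leukocyte adhesion molecule, fell from 128.8 ± 6.60 to 115.0 ± 9.05 CPM (log2 change -0.16 ± 0.0427, adjusted p = 0.0128). Without the block the adjusted p was 0.371 for Csf3 and 0.324 for Vcam1. The Csf3 call also ended without pair 1 or pair 3 (adjusted p = 0.177 and 0.104), and the Vcam1 call without pair 1, 2 or 3 (adjusted p = 0.0647, 0.0898 and 0.0676).

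Most genes of steroid synthesis beyond the HSD11B genes did not pass the filter or were not called. Of 34 genes of steroid metabolism and transport, 33 were found, 18 were tested, 2 were higher and 2 lower, and the median log2 change was -0.02. The adrenal enzyme genes Cyp11b1 and Cyp11b2 and the gene of the corticosteroid carrier of blood, Serpina6, had 0 counts in all 6 libraries. Hsd17b7, which acts in cholesterol and estrogen synthesis, rose from 117.2 ± 12.6 to 144.3 ± 14.3 CPM (log2 change 0.30 ± 0.041, adjusted p = 3.87e-05, and 0.176 without the block). Por, the reductase gene that serves cytochrome P450 enzymes, rose from 150.6 ± 3.47 to 165.3 ± 7.10 CPM (log2 change 0.14 ± 0.0434, adjusted p = 0.0414). Abcb1b, a drug and steroid exporter gene, fell from 48.8 ± 0.079 to 42.5 ± 0.714 CPM (log2 change -0.20 ± 0.0487, adjusted p = 0.00962). The sulfotransferase gene Sult2b1 fell from 6.08 ± 1.02 to 4.45 ± 0.142 CPM (log2 change -0.44 ± 0.134, adjusted p = 0.0314). Without the block the adjusted p was 0.299 for Por, 0.169 for Abcb1b and 0.226 for Sult2b1. Without pair 1, 2 or 3 it was 0.507, 0.0556 and 0.0655 for Por, whose log2 change without pair 1 was 0.077. Without pair 1 or pair 3 it was 0.0819 and 0.0657 for Abcb1b, and 0.148 and 0.271 for Sult2b1.

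Among 12 other steroid receptor and related genes, 4 were tested, and Esr1 was the only one called in the paired fit. Esr1, the estrogen receptor gene, stood at 13.5, 12.7 and 13.1 CPM in SM negative and 17.2, 15.9 and 17.1 CPM in SM positive libraries, with no overlap. It rose by 0.36 ± 0.0754 on the log2 scale (adjusted p = 0.00316, and 0.0804 without the block). The progesterone receptor gene Pgr had 0 counts in all 6 libraries.

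Of 27 genes of ion transport and of signalling by the mineralocorticoid receptor and SGK1, 21 were tested. In the paired fit 2 were higher and none lower, a share of higher genes near the 8.52% of all genes. The median log2 change was 0.07, and without pair 3 none of the 21 was called. Atp1b1, a sodium pump subunit gene, rose from 15 ± 0.945 to 19.1 ± 0.563 CPM (log2 change 0.34 ± 0.0748, adjusted p = 0.00415, and 0.0932 without the block). Cnksr3, a scaffold gene that aldosterone induces in kidney, rose from 16.5 ± 2.47 to 20.4 ± 3.44 CPM (log2 change 0.29 ± 0.0706, adjusted p = 0.00776, and 0.377 without the block). The Atp1b1 call ended without pair 3 (adjusted p = 0.086) and the Cnksr3 call without pair 2 or pair 3 (adjusted p = 0.0536 and 0.0761). Exons of Nme7 overlap Atp1b1 on the opposite strand. Nedd4l, the ubiquitin ligase gene whose product SGK1 phosphorylates, had a log2 change of -0.07 (adjusted p = 0.472). The sodium channel gene Scnn1b had 0 counts in all 6 libraries.

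The feedback genes of MAP kinase and EGF receptor signalling, to which Dusp1 and Errfi1 belong by function, were all tested. In the paired fit 8 of the 16 rose, 1 fell and 7 did not pass, beside 8.52% higher and 5.60% lower of all genes, with a median log2 change of 0.15. Without the block 1 was higher, and without pair 1 there were 3 higher and 1 lower. Spry1, which encodes an inhibitor of receptor tyrosine kinase signalling, stood at 132.7, 145.6 and 158.4 CPM in SM negative and 183.4, 183.2 and 202.8 CPM in SM positive libraries. It rose by 0.39 ± 0.0417 on the log2 scale (adjusted p = 2.20e-06, and 0.0332 without the block), with no overlap between fractions. Dusp6, a phosphatase gene that ERK induces, rose from 86.4 ± 7.89 to 104.9 ± 13.3 CPM (log2 change 0.28 ± 0.0427, adjusted p = 0.000164, and 0.243 without the block). Dusp9, a related phosphatase gene, fell from 78.5 ± 2.45 to 66.0 ± 2.94 CPM (log2 change -0.25 ± 0.0465, adjusted p = 0.000987, and 0.0726 without the block).

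Per1 and most of the clock genes differed between replicate numbers. Differences between the 3 numbers, tested in the same fit and separate from the contrast of the fractions, were called for 1 of the 10 genes, Per1 (adjusted p = 0.0297), and for 17.0% of all genes tested. Of 20 clock genes other than Per1, 18 were tested, and 12 of the 18 were called between numbers, against 1 higher and none lower between fractions. Of the genes that glucocorticoids induce, 14 of the 24 tested were called between numbers. Nr1d1, which encodes the repressor REV-ERBα and was chosen after its values were seen, stood at 13.6 and 13.3 CPM in SM negative and SM positive replicate 1, 12.4 and 10.2 CPM in replicate 2, and 8.20 and 7.09 CPM in replicate 3 (adjusted p = 0.000163 between numbers). Exons of Thra overlap Nr1d1 on the opposite strand. Cry1, a repressor gene of the clock chosen in the same way, stood at 24.1 and 26.5 CPM in replicate 1, 28.9 and 30.3 CPM in replicate 2, and 32.5 and 35.9 CPM in replicate 3 (adjusted p = 0.000637 between numbers). Per1 and Nr1d1 were lowest, and Cry1 highest, in the libraries of number 3. Bhlhe41, which encodes the clock repressor DEC2, was the 1 clock gene called between fractions, from 31 ± 3.23 to 41.1 ± 6.69 CPM (log2 change 0.40 ± 0.0545, adjusted p = 4.07e-05, and 0.172 without the block). Exons of Gm43909 overlap Bhlhe41 on the opposite strand. Nothing in the labels says what a number marks, such as a day of sorting.

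**Figure D5:**
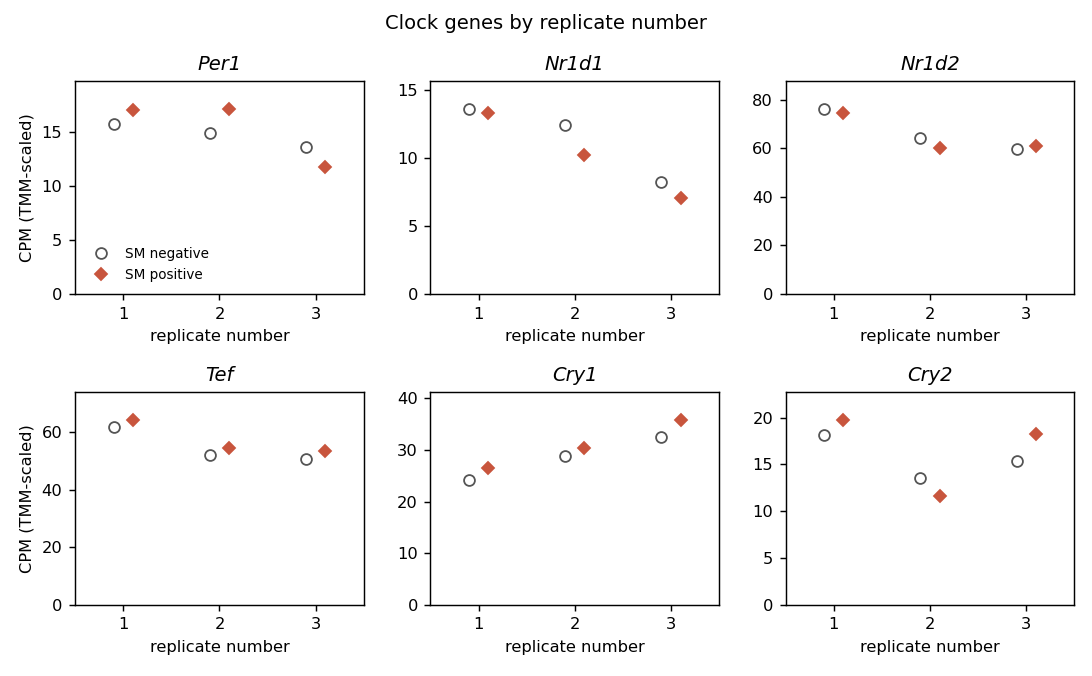
CPM (TMM-scaled, axis from 0) of Per1 and 5 other clock genes in the SM negative (open circles) and SM positive (diamonds) library of each replicate number; the numbers have no order of their own. Nr1d1 stands at 13.6 and 13.3 CPM in number 1 and at 8.20 and 7.09 CPM in number 3, and for Nr1d1, Nr1d2, Tef and Cry1 both libraries of number 1 lie on the same side of the libraries of the other numbers.

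Markers of cell types were read in the same libraries. Of 13 epithelial markers 12 were tested. In the paired fit none was higher and 3 were lower (Epcam, Krt19 and Cldn4), beside 8.52% higher and 5.60% lower of all genes. Without the block 0 of the 3 were called. The summed level of the epithelial markers was 4677.9 to 4910.4 CPM in SM negative and 4419.9 to 4733.4 CPM in SM positive libraries. Krt5 was at 0 in all 6 libraries. Of 10 fibroblast markers 3 were tested and 1 was higher, Pdgfra, from 3.55 ± 0.253 to 5.07 ± 1.11 CPM (adjusted p = 0.0423, and 0.246 without the block). The fibroblast sums were 4.65 to 5.25 CPM in SM negative and 6.12 to 8.51 CPM in SM positive libraries, with Col3a1, Lum and Thy1 at 0. Of 9 leukocyte markers 1 was tested, Cd68, which was lower, from 6.74 ± 1.1 to 4.90 ± 0.721 CPM (adjusted p = 0.0148, and 0.233 without the block). Leaving out any 1 pair ended the Pdgfra and Cd68 calls (adjusted p = 0.0564 to 0.427 and 0.0613 to 0.115), and without pair 3 the log2 change of Pdgfra fell from 0.49 to 0.27. The leukocyte sums were 6.57 to 8.82 CPM against 4.95 to 6.43 CPM, with Adgre1 and Cd3e at 0 and Ptprc at 0 in the SM negative libraries. None of 5 endothelial or 5 adipocyte markers passed the filter, with sums of at most 0.695 CPM and 0.608 CPM in any library. The part of these differences in the levels of Hsd11b1, Hsd11b2 and the other genes was not tested.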

How the data were processed

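Polyadenylated RNA was sequenced from 3 SM positive and 3 SM negative fractions of 4T1 cells, with a stranded mRNA kit per the labels' protocols. The authors deposited expected counts for each gene, made with FastQC 0.11.5, STAR 2.6.0a and RSEM 1.3.1 on GRCm38, per the submitters' processing notes. No source used here gives the annotation release or the strand setting. Of the identifiers, 99.8% matched GENCODE M21, which gave symbols and coordinates (1-based).

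Expected counts were rounded, filtered with filterByExpr (14038 genes left) and scaled by TMM. Fractions were compared in R 4.3.3 with the robust quasi-likelihood F test of edgeR 4.0.16, with a block for the replicate number, Benjamini-Hochberg adjustment over all genes tested and a threshold of 0.05. The test was checked on simulated data in which the changes set were larger than those of most genes named here. Smaller changes were not covered by that check. Each library's deviation from the mean of its fraction correlated over genes at 0.22, 0.28 and 0.196 with that of the same-numbered library, and at -0.175 to -0.0435 with the others. Deviations within a fraction sum to 0 for each gene, so the negative values follow from the positive ones and add no separate support. All 3 same-numbered values exceeded 0.1, so pairing by number was accepted. The labels do not say whether replicates came from different cultures or sorts, so p-values cover only the variation among these 6 libraries, possibly technical. A limit of 3 counts was used where a gene was at 0, for counting error only. Levels per kb used the union of a gene's exons.

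The 10 genes and all lists were chosen with earlier results of these data known, so no p is printed for the 10 genes between fractions. Named list genes were up to 2 called higher and 2 called lower per pathway list, by smallest p, at a mean of at least 1 CPM. Alternatives were no block, other scaling (RLE size factors, library totals), other filters, DESeq2 1.42.0, limma-voom (limma 3.58.1), no robust estimation, a threshold of 0.01 and leaving out each same-numbered pair.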

Additional observations from a re-analysis of the deposited data

How the results depend on the processing

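Hsd11b2 and Sgk1 kept their calls in all 12 alternatives, Nr3c1 lost its call in 6 and Hsd11b1 in 5. With no replicate block, 190 genes were called in place of 1982, with 2 of the 10 genes and 4 of the 141 tested pathway genes in place of 34. DESeq2 with the replicate block called 612 genes, 2 of the 10 and 15 pathway genes. A threshold of 0.01 left 939 genes, 2 of the 10 and 20 pathway genes. Leaving out 1 pair gave 705 to 1793 genes, 2 to 5 of the 10 and 17 to 32 pathway genes, with fewer libraries in each fit. The log2 change of Tsc22d3 ran from -0.088 to 0.002 and that of Per1 from -0.03 to 0.154 when a pair was left out, so both changed sign. Of the 20 named pathway genes, 17 lost the call without the block and 11 with DESeq2, and none changed direction under any alternative; Tgm2, Ptgs2 and Spry1 kept it in all 12. The calls between replicate numbers ran from 1708 to 3015 genes. The cause of these shifts was not tested. At 15 to 61 counts a library, depth limits the precision of both HSD11B genes.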
